A study of Mus musculus with 6 samples.

Results

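The tubular injury markers are 10 genes known to rise in injured kidney tubules: Lcn2, Havcr1, Spp1, Clu, Vcam1, Sox9, Krt8, Krt18, Timp1 and Cd24a. They were taken by gene symbol, and all 10 were found among the 24422 genes with counts in each kidney. RNA was sequenced from the kidneys of 3 FeD pups, whose dams ate chow low in iron (2 to 6 ppm), and of 3 control pups, whose dams ate chow with 220 ppm iron. All 6 pups were wild type C57BL/6 mice of postnatal day 15 (P15) by their labels, whereas the study's text gives a range of days that ends at P15. The dams ate their diet before mating, through pregnancy and until the pups were taken, so the pups of both groups were exposed through the dam and carried no deletion or transgene. The labels call the kidneys biological replicates but give neither litter nor dam. The effect of the diet therefore cannot be told apart from differences between litters.

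The epithelium of the nephron answers injury with a shared set of genes. Damaged tubule cells lose part of their differentiated transport program, secrete proteins that reach the urine, take on keratins and adhesion molecules of a flatter cell, and re-enter a state from which the tubule can be rebuilt. Lcn2 (neutrophil gelatinase-associated lipocalin) and Havcr1 (kidney injury molecule 1) are widely used as urinary and tissue markers of this response, and Lcn2 also binds siderophores, the small iron chelators of bacteria, which joins it to iron handling. The other markers are a secreted phosphoprotein (Spp1), a secreted inhibitor of metalloproteinases (Timp1) and a secreted chaperone (Clu). They also include surface proteins (Vcam1, Cd24a), a transcription factor of repairing tubules (Sox9) and the keratin pair of simple epithelia (Krt8, Krt18). The comparison of FeD with control kidneys asks which of these genes differ when iron is short during growth of the kidney. The study reports that most of a FeD litter was lost by birth, so the FeD values are those of pups that survived.

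Counts on genes totalled 16189041 to 20374327 in control and 13732173 to 20853293 in FeD kidneys, and the 10 markers together took 0.236% to 0.242% of the counts of a control kidney and 0.219% to 0.320% of those of a FeD kidney. Values below are normalized counts, the raw counts scaled by library size and TMM factor to the mean library, and a log2 fold change is that of FeD over control. A gene is said to rise or fall at an adjusted P (Padj) under 0.05 in the quasi-likelihood test of edgeR, corrected by the Benjamini-Hochberg method over all 15145 genes tested; SE stands for its standard error. Xist, the RNA of the inactive X chromosome, stood at 14238 to 16079 normalized counts in control kidneys 1 and 2 and FeD kidney 3 and at 28.0 to 48.0 in the other 3 kidneys, in which the Y-linked gene Ddx3y was high, so the groups held unlike numbers of each sex. FeD kidney 3 was thus the lone FeD kidney with high Xist. It was also the highest FeD kidney for 6 of the 10 markers (Lcn2, Spp1, Clu, Sox9, Timp1 and Cd24a), and values without it are given where they turn a result. Control kidney 2 was likewise the highest control kidney for 6 markers (Lcn2, Spp1, Vcam1, Sox9, Krt18 and Cd24a). Whole kidneys were sequenced, so fewer cells of a type and less RNA per cell cannot be told apart.

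The markers did not move as 1 block. All 10 passed the filter on low counts, Havcr1 through the FeD kidneys alone. Lcn2, Havcr1 and Krt18 rose, Clu and Vcam1 fell, and Spp1, Sox9, Krt8, Timp1 and Cd24a did not pass the test. Thus 3 of 10 rose where 22.4% of all tested genes did, and 2 of 10 fell where 23.3% did. With a change of at least 2-fold as well, 2 markers rose (Lcn2 and Havcr1) against 4.34% of all genes, and 1 fell (Vcam1) against 5.69%. Every FeD kidney lay above every control kidney for 4 markers, Lcn2, Havcr1, Krt18 and Cd24a, against 28.4% of all genes, and below for Clu and Vcam1, against 29.7%. The median log2 fold change of the 10 markers was 0.38, beside -0.0018 for all tested genes. Havcr1 had 5, 0 and 0 counts in the control kidneys, so it could enter these counts only as a gene that is higher in FeD, and nothing is read from its place in them. Of all tested genes, 99.5% had a lower log2 fold change than Lcn2.

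**Figure D1:**
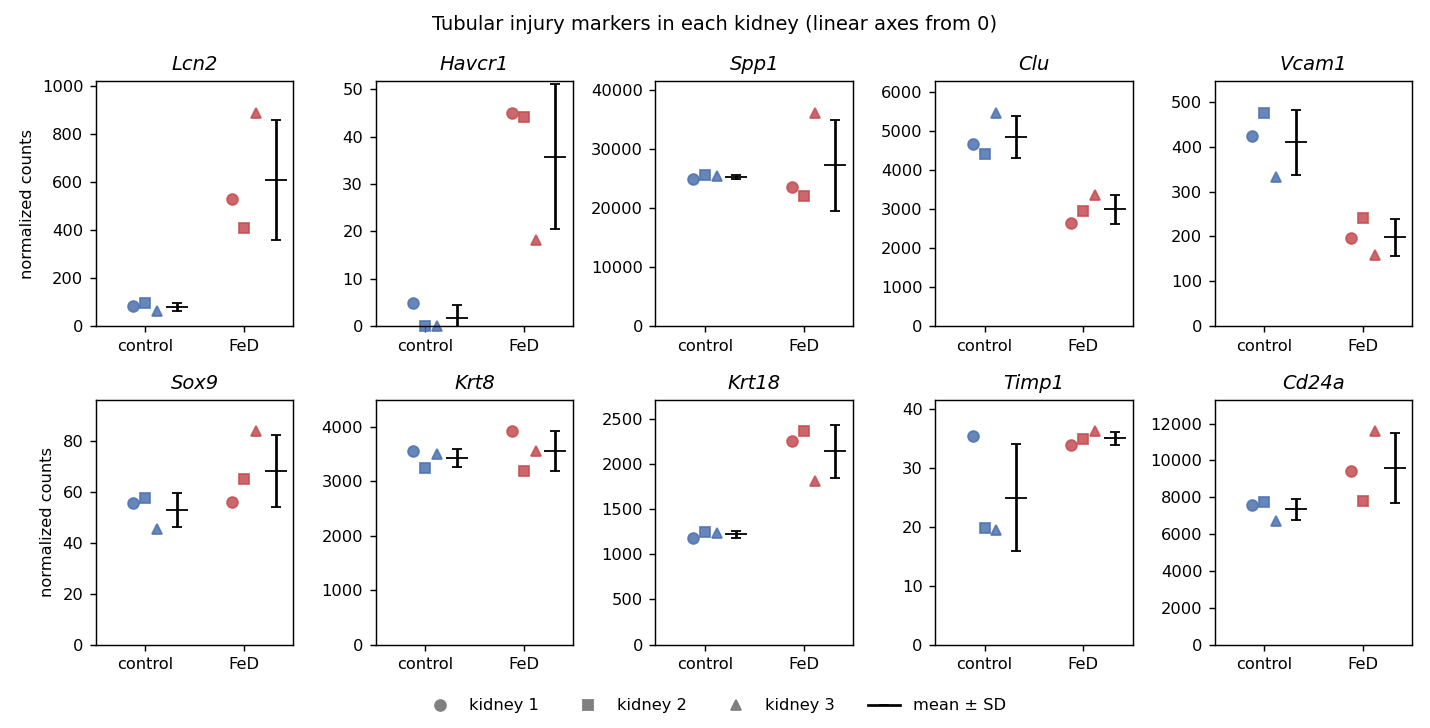
Normalized counts of the 10 tubular injury markers (linear vertical axes from 0) in each of 3 control (blue) and 3 FeD (red) kidneys, with the mean and SD of each group in black. The groups are apart for Lcn2, Havcr1, Krt18 and Cd24a (FeD higher) and for Clu and Vcam1 (FeD lower), and overlap for the other 4 markers; FeD kidney 3 (triangle) stands high for Lcn2 and Spp1.

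**Figure D2:**
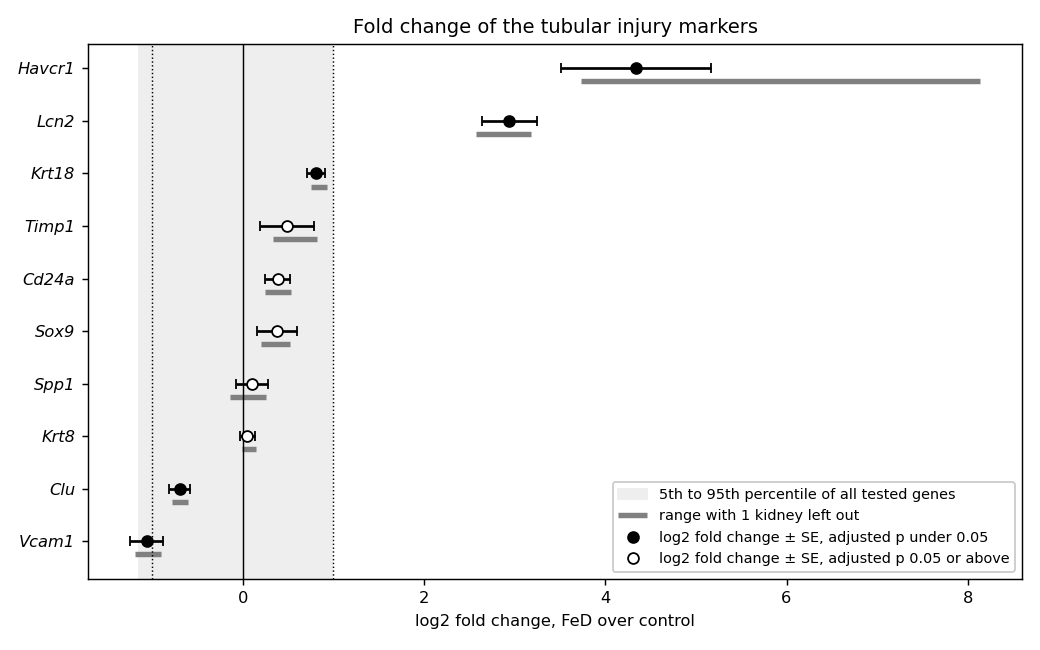
Log2 fold change of each marker, FeD over control, with its standard error (points; filled where the adjusted P is under 0.05), the range when each kidney in turn is left out (grey bars) and the 5th to 95th percentile of all 15145 tested genes, -1.14 to 0.98 (grey band); dotted lines mark a 2-fold change. Lcn2 and Havcr1 lie outside the band. The upper end of the Havcr1 bar comes from the fit without control kidney 1, in which both remaining control kidneys have 0 counts, and is no bound.

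Levels were compared between genes per kilobase of annotated exon. In control kidneys the order was Spp1 at 15341 ± 210 normalized counts per kilobase (SD, n = 3), Cd24a at 4049 ± 311, Krt8 at 1903 ± 90.2, Clu at 1408 ± 158, Krt18 at 872 ± 27.2, Vcam1 at 83.5 ± 14.8, Lcn2 at 34.7 ± 6.97, Timp1 at 28.1 ± 10.2, Sox9 at 12.8 ± 1.58 and Havcr1 at 0.691 ± 1.20. Spp1, Cd24a, Krt8, Clu and Krt18 were thus abundant RNAs of the control kidney at P15, each above at least 91.0% of the genes with an exon length. Lcn2 and Timp1 overlapped in this order and all other neighbours were apart. In FeD kidneys Krt18 (1529 ± 208) stood above Clu (868 ± 105) and Lcn2 (264 ± 108) above Vcam1 (40.3 ± 8.37), while Vcam1 overlapped Timp1 (39.5 ± 1.27) and Sox9 (16.5 ± 3.42) overlapped Havcr1 (15.5 ± 6.61). Even so, Lcn2 in FeD kidneys remained below Clu, and Havcr1 was the lowest of the 10 in both groups.

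Lcn2, the secreted siderophore-binding lipocalin of the injured distal nephron, lies on the minus strand of chromosome 2 (chr2:32240153-32243317, NCBIM37, mm9). It stood at 81.5, 95.1 and 63.2 normalized counts in control kidneys 1, 2 and 3, and at 529, 408 and 887 in FeD kidneys 1, 2 and 3. Every FeD kidney lay far above the control range, and FeD kidney 3 was the highest. The mean rose from 79.9 ± 16.0 to 608 ± 249 (SD, n = 3), 7.61-fold, with a log2 fold change of 2.94 (SE 0.30, edgeR Padj = 0.00021). Over the fits that omit 1 kidney each, the value for Lcn2 ranged from 2.57, without FeD kidney 3, to 3.18, without FeD kidney 2.

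The 250 bases before the RefSeq start of Lcn2 (chr2:32387740-32387989, GRCm38.p6, minus strand, from RefSeq) are shown because Lcn2 was the best measured large rise among the markers. Capitals mark matches, on either strand, to any of 8 short motifs that were searched in windows from 250 bases before to 50 bases after each start.
Lcn2: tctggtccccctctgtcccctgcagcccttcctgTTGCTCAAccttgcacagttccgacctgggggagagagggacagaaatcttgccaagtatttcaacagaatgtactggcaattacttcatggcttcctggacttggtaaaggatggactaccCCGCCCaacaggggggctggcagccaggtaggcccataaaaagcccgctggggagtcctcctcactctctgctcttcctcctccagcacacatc
The motifs were a TATA box (TATAAA), a GC box (GGGCGG), the core of a HIF response element (ACGTG or GCGTG), a STAT site (TTCNNNGAA), a C/EBP site (TTGCNNAA), an NF-kappaB site (GGANTTTCC or GGGNTTTCC), an AP-1 site (TGANTCA) and a SOX site (ACAAAG or ACAATG). The window of Lcn2 held a C/EBP match, TTGCTCAA, from base -216 to -209, which 10.8% of the 32851 windows of that length in the RefSeq table share, and a GC box on the opposite strand from -94 to -89, which 35.7% share. The matches do not overlap each other and are descriptions of letters, not of bound sites. Windows were given for 6 of the 10 markers, and Clu, Vcam1, Sox9 and Cd24a had none in the table.

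Genes upstream of Lcn2 in inflammatory signaling and their feedback genes were higher as well. Of 11 such genes, 7 rose and 0 fell, beside the 22.4% and 23.3% of all tested genes, and the median of the list was 0.71 on the log2 scale. Cebpd, a C/EBP factor of the acute phase, rose from 299 ± 32.1 to 1153 ± 265 normalized counts (edgeR Padj = 0.00010, log2 fold change 1.94), with 1.94 the highest value of the list. Il6ra and Il6st, the receptor chains for interleukin 6, had log2 fold changes of 1.42 and 0.38, Stat3, the factor they activate, 0.87, and Socs3, its feedback inhibitor, 1.09. Nfkbia, the inhibitor that NF-kappaB itself induces, rose by a log2 fold change of 1.12 and Cebpb by 0.71, though 20.7% of the exon bases of Cebpb overlap Tmem189 on the opposite strand. Nfkbiz, Bcl3, Nfkb2 and Relb, the other NF-kappaB genes of the list, did not pass, with log2 fold changes of 0.38, -0.05, -0.07 and 0.23.

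The 4 partners of Lcn2 all fell, as did 23.3% of all tested genes. Slc22a17, reported as a cell surface receptor of Lcn2, stood at 1609 ± 23.7 normalized counts in control and 987 ± 134 in FeD kidneys (log2 fold change -0.71, edgeR Padj = 0.00078). Lrp2 (megalin), which takes filtered Lcn2 up into the proximal tubule, had a log2 fold change of -0.48, and Bdh2, an enzyme reported to make a mammalian siderophore, -0.58. Mmp9, the gelatinase that Lcn2 binds, fell from 97.5 ± 22.1 to 24.6 ± 8.04 normalized counts (edgeR Padj = 0.0010, log2 fold change -2.00). Every FeD kidney lay below every control kidney for all 4 partners, as it did for 29.7% of all tested genes.

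Lcn2 is also made by neutrophils and by the collecting duct. Of the 9 neutrophil markers, 6 were tested, 1 rose (Retnlg, log2 fold change 2.31) and 0 fell, beside 22.4% and 23.3% of all tested genes. The summed level of the 9 markers ran from 45.4 to 535 normalized counts in control and from 166 to 514 in FeD kidneys. In control kidneys this sum ran in the same order as Lcn2, with control kidney 2 highest and control kidney 3 lowest. In FeD kidneys it ran in the opposite order to Lcn2, with FeD kidney 2 highest and FeD kidney 3 lowest. S100a8 stood at 18.2, 89.6 and 14.2 normalized counts in control and 105, 187 and 57.0 in FeD kidneys, and did not pass (edgeR Padj = 0.10, log2 fold change 1.53). Of the 8 markers of collecting duct principal cells, 5 rose and 2 fell, beside 22.4% and 23.3% of all tested genes. Aqp2 had a log2 fold change of 1.13 and Aqp3 of 1.10, whereas Avpr2 and Hsd11b2 fell, with -0.67 and -0.30. Of the exon bases of Avpr2, 81.3% overlap Arhgap4 on the opposite strand. The summed level of the 8 markers, to which Aqp2 gave the most, was 26166 to 35525 in control and 37838 to 58552 in FeD kidneys. The FeD kidneys ran in the same order for Lcn2, Aqp2 and Aqp3, with FeD kidney 3 highest and FeD kidney 2 lowest. The control kidneys did not: control kidney 3 was the lowest of them for Lcn2 and the highest for Aqp2 and Aqp3 (16567 and 5431 normalized counts). The part of either cell type in the rise of Lcn2 was not tested.

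Havcr1, a phosphatidylserine receptor that turns injured proximal tubule cells into phagocytes, lies on the plus strand of chromosome 11 (chr11:46548582-46593080, mm9). It had 5, 0 and 0 raw counts in control kidneys 1, 2 and 3 and 45, 34 and 21 in FeD kidneys. Havcr1 was thus nearly undetected in control kidneys, where 0 counts allow up to 0.185 CPM (counts scaled to the library total) in control kidney 2 and 0.147 CPM in control kidney 3, and it was present in every FeD kidney, at 2.52, 2.48 and 1.01 CPM. Pooled over kidneys and scaled for depth, 100 FeD counts against 5 control counts gave a ratio of 21.0 (exact 95% interval 8.69 to 66.0, which covers counting error only). The fitted log2 fold change was 4.34 (SE 0.83, edgeR Padj = 0.0036) and passed in every fit that left out 1 kidney, with adjusted P values up to 0.018. At such counts the size of the change is poorly fixed, and the filter kept Havcr1 only because of its FeD counts.

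Other Tim family genes and candidate proteases of Havcr1 did not pass the test. Of these 5 genes, Timd4 was too low to be tested, and 0 of the other 4 passed. Timd2 stood at 32.6, 48.7 and 40.0 normalized counts in control and 125, 178 and 31.9 in FeD kidneys (log2 fold change 1.45, edgeR Padj = 0.055), high in FeD kidneys 1 and 2 only, the kidneys in which Havcr1 was also highest. Havcr2 had a log2 fold change of 0.91, and Adam10 and Adam17, candidate proteases for shedding the Havcr1 ectodomain, of 0.08 and -0.15. The proximal tubule, in which Havcr1 is induced, had 7 of 8 markers lower and 0 higher, beside 23.3% and 22.4% of all tested genes. The summed level of the 8 markers was 163543 to 175596 normalized counts in control and 63978 to 71788 in FeD kidneys. The part of this shift in the Havcr1 value was not tested.

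Spp1 (osteopontin), a secreted phosphoprotein of matrix and urine, was the most abundant marker and did not differ beyond the spread between kidneys. Spp1 (chr5:104864137-104870069, plus strand, mm9) stood at 24895, 25561 and 25392 normalized counts in control and 23547, 21943 and 36075 in FeD kidneys. The control kidneys lay within a narrow range, FeD kidneys 1 and 2 lay below it, and FeD kidney 3 lay far above it. The log2 fold change was 0.10 (SE 0.17, edgeR Padj = 0.65) and turned to -0.14 without FeD kidney 3 (edgeR Padj = 0.10), so its sign rests on that kidney. Among 6 receptor genes of osteopontin, 3 rose and 0 fell, beside 22.4% and 23.3% of all tested genes. The 3 were Cd44 (log2 fold change 0.87), a receptor of injured epithelium and leukocytes, Itgb3 (0.67) and Itgav (0.43). Itgb3 and Itgav together encode an integrin that binds the RGD sequence of osteopontin. Itgb1, Itgb5 and Itga9 had log2 fold changes of 0.24, -0.15 and -0.03 and did not pass. Of the exon bases of Itgav, 5.90% overlap a noncoding gene on the opposite strand.

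Clu (clusterin), a secreted chaperone that is induced in damaged tubules, fell. Clu (chr14:66587320-66600385, plus strand, mm9) stood at 4664, 4406 and 5452 normalized counts in control and 2643, 2945 and 3364 in FeD kidneys. All FeD kidneys lay below all control kidneys. The mean went from 4841 ± 545 to 2984 ± 362 (SD, n = 3), a log2 fold change of -0.70 (SE 0.11, edgeR Padj = 0.0015) that ranged from -0.78 to -0.60 when each kidney in turn was left out. This direction is opposite to that known for Clu in injured tubules.

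Timp1, the secreted inhibitor of metalloproteinases that is a marker of fibrosis, was low in both groups and did not pass. Timp1 (chrX:20447292-20451861, plus strand, mm9, within an intron of Syn1 on the opposite strand) stood at 35.5, 19.9 and 19.6 normalized counts in control and 34.0, 35.1 and 36.3 in FeD kidneys. The FeD kidneys were close together and overlapped control kidney 1 alone. The log2 fold change was 0.49 (SE 0.29, edgeR Padj = 0.21), and 0.82 without control kidney 1 (edgeR Padj = 0.057). Of the inhibitors and proteases around it, 8 of 9 were tested, 3 rose and 2 fell, beside 22.4% and 23.3% of all tested genes. Mmp14, the membrane metalloproteinase, rose from 999.8 ± 59.2 to 2005 ± 121 normalized counts (edgeR Padj = 5.0e-05, log2 fold change 1.00), Timp3 and Timp2 rose by log2 fold changes of 0.37 and 0.25, and Mmp9 and the Timp1 receptor Cd63 fell by 2.00 and 0.36 on the log2 scale. Of the exon bases of Timp3, 21.3% overlap Syn3 on the opposite strand.

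Vcam1, the adhesion molecule of activated endothelium and of tubule cells that fail to repair, fell to about the level of a 2-fold change. Vcam1 (chr3:115812938-115832606, minus strand, mm9) stood at 424, 476 and 332 normalized counts in control and 196, 240 and 158 in FeD kidneys, and the groups did not overlap. The mean went from 410 ± 72.8 to 198 ± 41.2 (SD, n = 3), a log2 fold change of -1.06 (SE 0.18, edgeR Padj = 0.0022). Without control kidney 2 it was -0.94 and without FeD kidney 3 it was -0.90, so the 2-fold threshold, though not the test, depends on those kidneys. Markers of endothelium, which also makes Vcam1, were mostly lower: 4 of 6 fell and 1 rose, beside 23.3% and 22.4% of all tested genes. Emcn led the falls (log2 fold change -1.04), Flt1 rose (0.45) and Pecam1 did not pass (0.09). The summed level of the 6 markers ran from 14494 to 15036 normalized counts in control and from 10212 to 13124 in FeD kidneys. The part of endothelium in the fall of Vcam1 was not tested.

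Of 5 integrin chains and adhesion molecules around Vcam1, 1 rose and 1 fell, beside 22.4% and 23.3% of all tested genes. Icam1, which like Vcam1 holds leukocytes, rose from 408 ± 8.71 to 590 ± 25.3 normalized counts (edgeR Padj = 0.00090, log2 fold change 0.53), though 19.3% of its exon bases overlap a gene on the opposite strand. The integrin chain Itgb7 fell by 1.14 on the log2 scale, while Itga4, which forms the Vcam1 receptor with Itgb1, had a log2 fold change of -0.20 and did not pass. Of 7 lymphocyte markers, 3 were tested and all 3 fell (Cd79a, Cd8a and Cd4, log2 fold changes -2.38, -2.22 and -1.63), beside 23.3% of all tested genes. The summed level of the 7 markers was 132 to 179 normalized counts in control and 27.6 to 36.4 in FeD kidneys.

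Cd24a, a glycoprotein of developing and regenerating tubule cells anchored to the membrane by a lipid, lay above control in every FeD kidney but just missed the test. Cd24a (chr10:43298975-43304068, plus strand, mm9) stood at 7590, 7737 and 6696 normalized counts in control and 9436, 7767 and 11569 in FeD kidneys. FeD kidney 2 exceeded the highest control kidney only slightly, and FeD kidney 3 was the highest. The log2 fold change was 0.39 (SE 0.14, edgeR Padj = 0.051). Cd24a did not pass in 9 of 14 alternatives, and without FeD kidney 3 its log2 fold change was 0.24 (edgeR Padj = 0.080). The call changes with the processing: the adjusted P was 0.049 with DESeq2 size factors in edgeR, 0.046 with a filter of at least 10 counts in every kidney, 0.013 with DESeq2 and 0.0075 without FeD kidney 2, but 0.17 without control kidney 3. Its ligand Siglecg, a receptor of B cells, fell from 11.8 ± 0.958 to 1.10 ± 1.01 normalized counts (edgeR Padj = 0.0036, log2 fold change -3.36), and Selp had a log2 fold change of 0.98 and did not pass.

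Sox9, the transcription factor that marks tubule cells rebuilding the epithelium, did not pass. Sox9 (chr11:112643538-112649074, plus strand, mm9) stood at 55.6, 57.5 and 45.4 normalized counts in control and 56.0, 64.9 and 83.7 in FeD kidneys. FeD kidney 1 lay within the control range and FeD kidney 3 was the highest. The log2 fold change was 0.38 (SE 0.22, edgeR Padj = 0.20) and 0.20 without FeD kidney 3. Of 6 other Sox genes, 5 were tested and 0 passed, with log2 fold changes from -0.39 for Sox4, another factor of injured tubules, to 0.39 for Sox8. Markers of dividing cells fell in 5 of 5 cases, led by Mki67 (log2 fold change -2.22), beside 23.3% of all tested genes. The summed level of the 5 markers was 1948 to 2243 normalized counts in control and 502 to 662 in FeD kidneys.

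Krt8 and Krt18 encode the type II and type I keratins that pair into the filaments of simple epithelia, and the genes are neighbours on chromosome 15. Krt8 (chr15:101827142-101834773, minus strand, mm9) stood at 3557, 3250 and 3497 normalized counts in control and 3917, 3193 and 3555 in FeD kidneys. Its groups overlapped fully (log2 fold change 0.05, SE 0.08, edgeR Padj = 0.66), and the value was -0.01 without FeD kidney 1. Krt18 (chr15:101858647-101862457, plus strand, mm9) stood at 1178, 1251 and 1233 normalized counts in control and 2252, 2360 and 1810 in FeD kidneys, and every FeD kidney lay well above the control kidneys. Krt18 rose 1.75-fold, from 1221 ± 38.1 to 2141 ± 291 (SD, n = 3), with a log2 fold change of 0.81 (SE 0.10, edgeR Padj = 0.00046) that ranged from 0.75 to 0.93 when each kidney in turn was left out.

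The ratio of the pair within a library needs no scaling between libraries. Krt8 counts per Krt18 count were 3.02, 2.60 and 2.84 in control and 1.74, 1.35 and 1.96 in FeD kidneys, with no overlap. The mean ratio was 2.82 ± 0.212 in control and 1.69 ± 0.309 in FeD kidneys (SD, n = 3), a difference of -0.76 on the log2 scale (two-sided exact permutation P = 0.10, the smallest that 3 against 3 kidneys can give). Of the windows of 100 bases in Krt8 transcripts, 29.4% recur exactly elsewhere in the mm9 genome, against 0% for Krt18, so the counts of uniquely mapped reads can be too low for Krt8, through the same windows in both groups. Among the other markers, Cd24a had 1.40% of such windows and the remaining 8 had 0%.

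**Figure D3:**
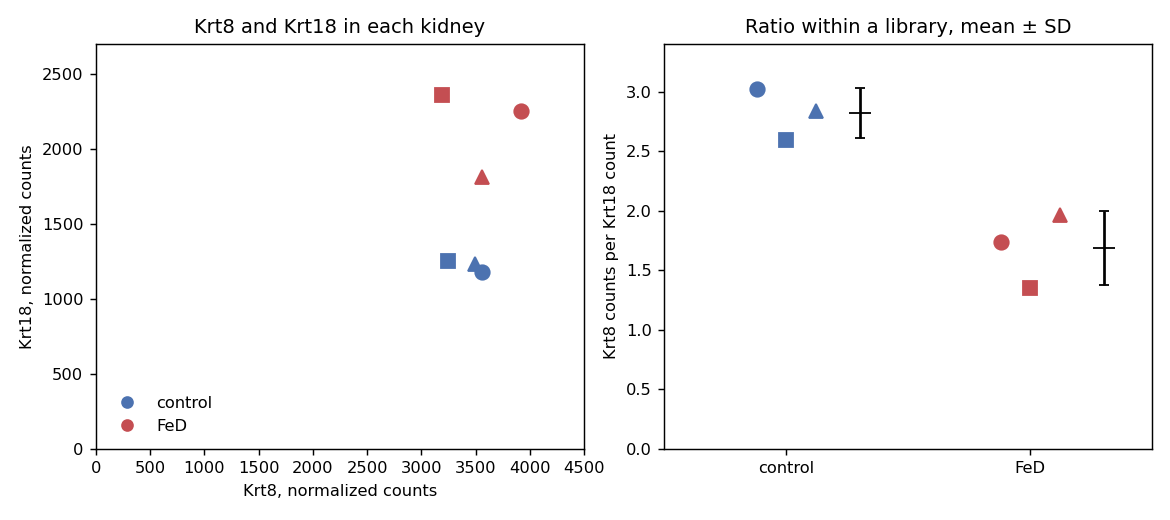
Left, Krt18 against Krt8 in each kidney (normalized counts, linear axes from 0; blue control, red FeD; circle, square and triangle are kidneys 1, 2 and 3 of a group); right, Krt8 counts per Krt18 count in each kidney with mean and SD. The kidneys separate along Krt18 but not along Krt8, and the ratio is 2.60 to 3.02 in control and 1.35 to 1.96 in FeD kidneys.

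The 250 bases before the RefSeq starts of the pair (GRCm38.p6; Krt8 chr15:102004343-102004592, minus strand; Krt18 chr15:102027966-102028215, plus strand) are shown because the genes differ in their change; capitals mark motif matches as for Lcn2.
Krt8: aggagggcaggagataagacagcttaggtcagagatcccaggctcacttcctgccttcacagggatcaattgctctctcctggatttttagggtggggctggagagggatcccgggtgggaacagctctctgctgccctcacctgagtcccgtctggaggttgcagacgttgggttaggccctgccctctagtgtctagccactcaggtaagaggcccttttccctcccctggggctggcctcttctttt
Krt18: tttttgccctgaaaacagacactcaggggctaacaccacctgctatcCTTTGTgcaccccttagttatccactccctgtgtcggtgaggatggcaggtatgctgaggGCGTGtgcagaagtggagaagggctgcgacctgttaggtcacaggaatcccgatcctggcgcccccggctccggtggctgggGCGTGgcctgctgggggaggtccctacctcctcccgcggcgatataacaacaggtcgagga
Krt18 held a match to the HIF core, GCGTG, from -143 to -139 and from -61 to -57, which 43.8% of all windows hold at least once, and a SOX match on the opposite strand from -203 to -198, which 28.6% hold. In the window of Krt8 the TATA box letters, on both strands and overlapping, ran across the start, from -3 to 5, and the other motifs were absent from it.

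Other keratins of simple epithelia divided as well. Of 7 keratins and filament anchors, 4 rose and 1 fell, beside 22.4% and 23.3% of all tested genes. Krt20, a keratin of injured tubules and of gut and urothelium, stood at 30.7, 42.0 and 33.8 normalized counts in control and 495, 258 and 179 in FeD kidneys (log2 fold change 3.13, SE 0.39, edgeR Padj = 0.00050). Krt19 rose from 637 ± 113 to 1451 ± 442 (log2 fold change 1.19) and Krt23 from 98.2 ± 7.41 to 179 ± 8.26 (log2 fold change 0.86), and the plakophilin Pkp2, a desmosome protein, had a log2 fold change of 0.68. Krt7, in contrast, fell by 0.49 on the log2 scale, and Dsp and Plec did not pass. Markers of urothelium, which also carries these keratins, fell in 3 of 5 cases (Upk2, Krt5 and Upk3a) and rose in 0. Of all tested genes 23.3% fell and 22.4% rose. The summed level of the 5 markers was 999 to 1374 normalized counts in control and 712 to 953 in FeD kidneys.

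Among the wider set of injury and repair genes some rose and some fell. Of 34 other genes reported to rise in injured or repairing tubules, 33 were tested. Of these 14 rose and 8 fell, beside 22.4% and 23.3% of all tested genes, and 10 rose and 2 fell at least 2-fold, beside 4.34% and 5.69%, so the number that fell was near the background. The median log2 fold change of the list was 0.19. After Krt20, the largest rises were those of Cdkn1a (p21), a cell cycle inhibitor, from 429 ± 38.0 to 3071 ± 475 normalized counts (edgeR Padj = 8.9e-06, log2 fold change 2.84), of Ctgf, a matrix protein of fibrosis (2.16), and of Tnfrsf12a, the receptor of the cytokine Tweak (1.60). The largest falls were those of Itgb6, an integrin chain that activates TGF-beta, from 2430 ± 25.4 to 950 ± 198 (log2 fold change -1.35, edgeR Padj = 0.00018), of the stress factor Nupr1 (-1.34), of S100a6 (-0.51) and of Tgfb1 (-0.50). Of the exon bases of Ctgf, 22.9% overlap a noncoding gene on the opposite strand, and 8.10% of those of Tnfrsf12a overlap Hcfc1r1.

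Genes of differentiated tubules that are known to fall in injury were lower as a list. This list holds most of the proximal tubule markers given above, so their falls are counted again here. Of 18 genes, 12 fell, beside 23.3% of all tested genes, 9 of them at least 2-fold, beside 5.69%, and 0 rose, beside 22.4%, and the median of the list was -0.94 on the log2 scale. The sodium-glucose cotransporter Slc5a2 of the early proximal tubule stood at 6433 ± 291 normalized counts in control and 215 ± 51.0 in FeD kidneys (log2 fold change -4.89, edgeR Padj = 3.3e-06). Miox, an inositol oxygenase, the phosphate transporter Slc34a1 and the dicarboxylate transporter Slc13a3 followed, with log2 fold changes of -3.39, -2.22 and -2.13. Opposite-strand genes cover 20.6% of the exon bases of Slc5a2 and 5.45% of those of Slc34a1. The other 6 of the 18 did not pass the test.

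**Figure D4:**
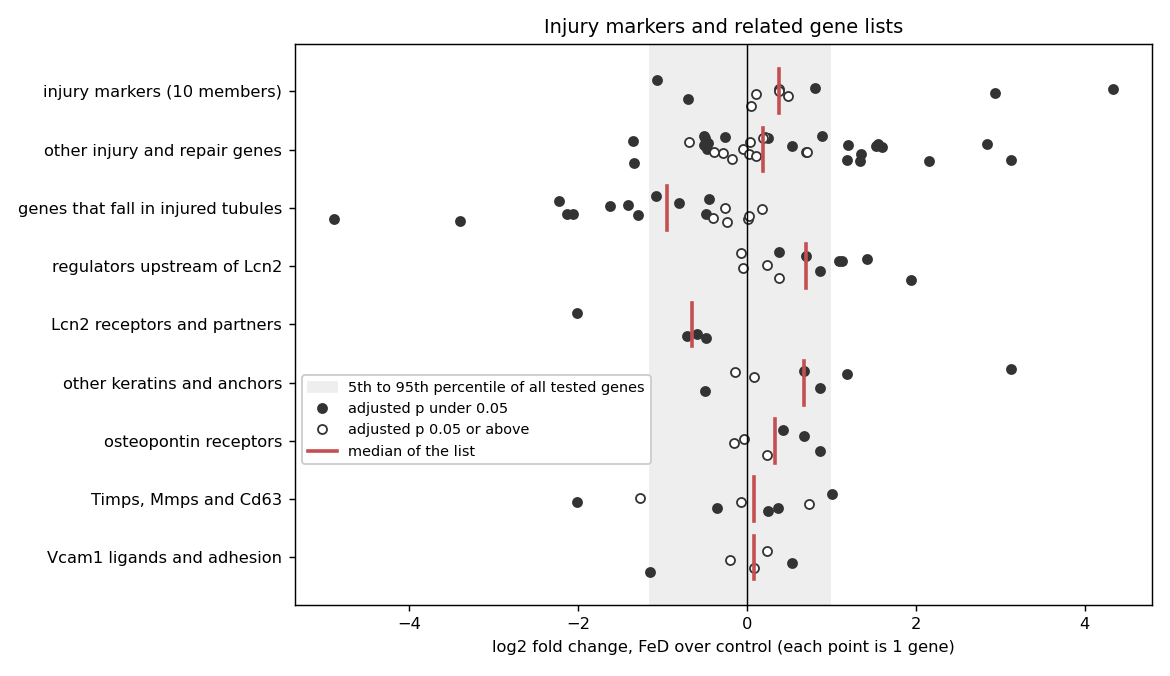
Log2 fold change, FeD over control, of each tested gene of the 10 markers and of 8 related lists (1 point per gene, filled where the adjusted P is under 0.05; vertical jitter has no meaning), with the median of each list in red and the 5th to 95th percentile of all tested genes as a grey band. The genes that fall in injured tubules lie to the left (median -0.94) and the regulators upstream of Lcn2 to the right (median 0.71), while the markers and the other injury genes lie on both sides of 0.

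Leukocyte markers gave no single direction beside these values. Of 8 macrophage markers, 4 rose and 1 fell, beside 22.4% and 23.3% of all tested genes. Cd163, Cd68, C1qc and C1qa rose, with log2 fold changes of 1.38, 1.12, 0.55 and 0.42. Csf1r fell (-0.45, with 16.7% of its exon bases shared with Hmgxb3 on the opposite strand) and Adgre1 did not pass (-0.39). The summed level of the 8 markers was 2684 to 2954 normalized counts in control and 2779 to 3313 in FeD kidneys. The globin genes were listed at 0 in all 6 kidneys and could not serve as a measure of blood. With the class of Xist as a term in the edgeR fit, an alternative added after the data were seen, the 5 markers that rose or fell passed with the same sign. For Havcr1, nearly undetected in control kidneys, the sign could not differ. In that fit Lcn2 had a log2 fold change of 3.14 (edgeR Padj = 2.8e-05), Cd24a passed as well (log2 fold change 0.48, edgeR Padj = 0.0068), and Spp1, Sox9, Krt8 and Timp1 did not.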

How the data were processed

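RNA was isolated with TRIzol, polyadenylated RNA was selected, TruSeq libraries were sequenced as single-end reads of 100 bases, and the authors processed them with CASAVA 1.8.2, Trimmomatic and TopHat2 2.0.11 (mm9, uniquely mapped reads). The authors deposited raw counts from HTSeq for each gene in each kidney, not normalized. The annotation, counting mode and strand setting are not given in the sources used here.

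The deposited counts were analysed with edgeR 4.0.16 in R 4.3.3 (filterByExpr, TMM, quasi-likelihood test, Benjamini-Hochberg adjustment); 15145 of 24422 genes were tested, and a 2-fold change was marked in addition. Ratios were computed in Python 3.11.15. The standard error is the log2 fold change divided by the square root of F. A floor of 3 counts equals 0.144 to 0.218 CPM, and floors and intervals cover counting error only. Replicates differed beyond counting noise. The chi-square per degree of freedom was 3.77 to 7.36 between control kidneys and 11.5 to 30.4 between FeD kidneys. The FeD kidneys thus varied more, whereas edgeR fitted the same dispersion of a gene to both groups. The edgeR P values weigh the difference of the groups against the spread between these kidneys, moderated over all tested genes. In simulated counts with 200 genes changed 4-fold, edgeR recovered 199 of 200 with 9 false calls among 15298 genes tested. A call there needed a Padj under 0.05 and a change of at least 2-fold. The changed genes were drawn from genes of higher average level than Havcr1 and Timp1, and both groups had the same dispersion. The simulation therefore does not cover calls on Padj alone, at such low counts or with the wider spread of the FeD kidneys.

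Positions and exon lengths came from GENCODE for NCBIM37 (mm9), in which 20608 symbols matched a single gene, and upstream sequences from RefSeq (GRCm38.p6). No marker shares exon bases with another gene.

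The members and lists were chosen with earlier results of these data known. Some genes stand in several lists (Lrp2, Krt7, Krt19, Krt20, Mmp9 and Icam1 among them), so counts of lists that share genes are not independent. All 10 markers were named with their values. Genes of the partner and Lcn2 lists could be named, and of the other lists the 4 largest changes in each direction that passed, plus the first 2 of each cell type list. Xist and Ddx3y were named after its values were seen.

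Alternatives were DESeq2 size factors, library size alone, no filter, at least 10 counts in every kidney, the DESeq2 1.42.0 Wald test, the replicate number as a block, globin and mitochondrial genes left out, each kidney left out in turn and, added later, the class of Xist.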

Additional observations from a re-analysis of the deposited data

How the results depend on the processing

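Lcn2, Krt18, Clu and Vcam1 kept their direction and passed under every alternative. The fit without globin and mitochondrial genes tested 15144 genes in place of 15145, so it could hardly differ from the main fit. Havcr1 passed wherever it was tested, but with 5, 0 and 0 counts in the control kidneys its direction could not differ. It was not tested with at least 10 counts in every kidney, which left 1 marker at least 2-fold higher in place of 2. The number of markers at least 2-fold lower was 0 without control kidney 2 or FeD kidney 3 and 1 otherwise, a range of 0 to 1 when each kidney was left out. When each kidney was left out, the log2 fold change of Spp1 ranged from -0.14, without FeD kidney 3, to 0.26, and that of Krt8 from -0.0080, without FeD kidney 1, to 0.14. Cd24a passed with DESeq2 size factors, with the stricter filter, with DESeq2, without FeD kidney 2 and with the class of Xist as a term. The number of markers that rose was 3 to 4 and that of markers that fell 2 over all alternatives; of the other injury and repair genes, 13 to 17 rose and 6 to 10 fell. The log2 difference of the Krt8 to Krt18 ratio ranged from -0.87 to -0.61 when each kidney was left out, where no exact P can pass.

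With the replicate number as a block, 3 markers rose and 2 fell, 2 and 1 of them at least 2-fold, and Lcn2 had a log2 fold change of 2.88; of the other injury genes 14 rose and 10 fell, 10 and 2 of them at least 2-fold. The block changed no call of a marker. Deviations from the group mean correlated across genes at -0.16, 0.000096 and -0.035 between kidneys with the same number. Between kidneys with unlike numbers the correlations ran from -0.092 to 0.17. With 3 kidneys in a group these values cannot decide whether the numbers pair the kidneys.

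Depth limits Havcr1 most, with 5 counts over the control kidneys. Litter, dam and sex were not balanced or not given, and their part in the values was not tested beyond the fit with Xist.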
